A study of Homo sapiens with 4 samples.

Results

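Heat shock proteins, their DNAJ partners and related chaperones were followed in a human neuroblastoma line, SH-SY5Y, which is an established line grown in culture. Members were the protein-coding genes whose symbols name an HSP70, HSP110, HSP90, small HSP, HSP60 or HSP10 gene, a DNAJA, DNAJB or DNAJC gene, a CCT chaperonin subunit, a BAG cofactor or a heat shock factor. HSPA5, the HSP70 of the endoplasmic reticulum, was left out. The rule used symbols and no measured value, and it found 91 genes among 58243 in the tables, of which 19818 were protein coding. By class they were 11 HSP70, 3 HSP110, 2 HSP90 and 8 small HSP genes, 2 genes for HSP60 and HSP10, 9 CCT genes, 4 DNAJA, 12 DNAJB and 28 DNAJC genes, 6 BAG genes and 2 heat shock factors. HSF2BP and 3 readthrough genes, which join a chaperone gene to its neighbour, matched the name pattern only.

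Both groups were SH-SY5Y cells from a cell bank, and the treatment description speaks of cells differentiated with retinoic acid. Untreated cells gave the 2 control libraries. The 2 libraries named SNP came from cells exposed for 8 h to sodium nitroprusside, a donor of nitric oxide. Several doses of SNP were used in the experiment, and the dose behind these libraries is not given in the sources used here. All 4 libraries come from 1 cell line. The labels do not say that libraries a and b of a group came from separate cultures, so p-values measure only the spread between these libraries, which may be technical.

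Chaperones hold unfolded proteins and help them to fold. HSP70 proteins bind exposed stretches of a client and release them in a cycle driven by ATP. DNAJ proteins deliver the client and start ATP hydrolysis, whereas HSP110 and BAG proteins exchange the nucleotide and end the cycle. HSP90 finishes the folding of kinases and receptors, the chaperonins CCT and HSP60 enclose a client in a chamber, and small HSPs hold aggregating proteins without ATP. HSF1, the main heat shock transcription factor, binds inverted repeats of GAA, called heat shock elements, in the promoters of many of these genes.

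Total counts were between 5613144 and 8056550 per library, so a floor of 3 counts equals 0.372 to 0.534 CPM (counts per 1000000 counted reads). Of the 10 adrenergic neuroblast markers checked, 9 passed the count filter, TH was listed at 0, and their summed level was 2783 and 2858 CPM without and 2255 and 2359 CPM with SNP. By the edgeR test used throughout, 5 of these markers were lower and 2 higher: DBH, a noradrenaline enzyme, went from 623 and 720 to 220 and 297 CPM, whereas HAND2 and CHGA rose. The 9 mesenchymal markers summed to 417 and 460 CPM in control and 387 and 379 CPM after SNP, with VIM and COL1A2 called lower and COL3A1 higher. The part of these shifts in the chaperone results was not tested. Of 5 glial markers, 4 were at 0 in all libraries and the sum was at most 0.531 CPM. The retinoic acid response genes summed to between 4.91 and 7.28 CPM, with CYP26A1 at 0. In RNA from whole cultures, fewer cells of a type and less RNA per cell cannot be told apart.

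Promoter sequences are shown because the heat shock element is the feature that ties many of these genes to HSF1. RefSeq promoter windows (GRCh38.p14, 250 bases before to 50 bases after a start) were matched to 78 of the 91 members. The long motif searched was GAANNTTC followed, after 2 bases of any kind, by GAA, that is, 3 alternating units. Searched on both strands, it occurred in 7 of the 78 matched members (8.97%) and in 0.608% of the 27305 genes that had a window; of all 35116 windows, 0.490% held it. The 7 members were DNAJA1, DNAJB6, HSPA6, HSPA8, HSPD1, HSP90AA1 and HSP90AB1. The matches are given below 5′ to 3′ on the strand of the gene, with the bases of the motif in capitals. HSP90AB1 and HSPA8 each had 2 separate matches, and in HSPD1 overlapping matches are merged.
DNAJA1, chr9:33025268-33025296, plus strand: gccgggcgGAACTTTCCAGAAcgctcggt
DNAJB6, chr7:157336865-157336893, plus strand: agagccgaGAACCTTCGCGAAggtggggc
HSP90AA1, chr14:102087112-102087140, minus strand: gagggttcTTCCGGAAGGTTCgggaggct
HSP90AB1, chr6:44247770-44247798, plus strand: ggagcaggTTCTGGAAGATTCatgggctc
HSP90AB1, chr6:44247823-44247851, plus strand: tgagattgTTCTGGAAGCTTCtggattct
HSPD1, chr2:197500062-197500090, minus strand: gcattTTCTGGAAAGTTCTGGAAccgagc
HSPA6, chr1:161524458-161524486, plus strand: cggaaaggTTCGCGAAAGTTCgcggcggc
HSPA8, chr11:123062171-123062199, minus strand: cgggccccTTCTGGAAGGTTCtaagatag
HSPA8, chr11:123062346-123062374, minus strand: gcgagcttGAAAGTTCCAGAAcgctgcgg

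Counted from the start of the window that holds the match, the motif began 165 and 112 bases before the start in HSP90AB1 and 88 bases before it in HSP90AA1. In DNAJB6 it began 131 bases before the start, and in HSPA8 55 and 230 bases before it. In DNAJA1 it began 4 bases into the transcript.

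The shorter motif GAANNTTC, which reads the same on both strands and lies inside every longer match, occurred in 19 of the 78 matched members (24.4%) and in 8.21% of all genes with a window. HSPA1A, HSPA1B, DNAJB1 and HSPB1, textbook heat shock genes, held only this shorter form. A match is a stretch of letters and was not examined for binding. The stretches below lie before a start and outside every annotated exon. Those of HSP90AB1, DNAJB6 and DNAJB1 lie inside the gene's GENCODE 29 span, before an internal start, and HSP90AB1 and DNAJB1 each had 3 windows, of which 1 is shown. The 4 stretches show a promoter with 2 long matches, one with 1 long match, and a pair with short matches only, of which HSPA1B was higher after SNP and DNAJB1 was not called.
HSP90AB1, chr6:44247693-44247865, plus strand: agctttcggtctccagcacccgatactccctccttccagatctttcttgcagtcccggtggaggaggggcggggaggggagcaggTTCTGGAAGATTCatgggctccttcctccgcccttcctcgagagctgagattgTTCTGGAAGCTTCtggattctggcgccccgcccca
DNAJB6, chr7:157336774-157336965, plus strand: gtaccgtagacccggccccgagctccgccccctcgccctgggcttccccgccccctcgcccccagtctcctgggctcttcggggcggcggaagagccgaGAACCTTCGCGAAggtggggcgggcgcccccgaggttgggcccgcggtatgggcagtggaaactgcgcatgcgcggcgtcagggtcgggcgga
HSPA1B, chr6:31827488-31827734, plus strand: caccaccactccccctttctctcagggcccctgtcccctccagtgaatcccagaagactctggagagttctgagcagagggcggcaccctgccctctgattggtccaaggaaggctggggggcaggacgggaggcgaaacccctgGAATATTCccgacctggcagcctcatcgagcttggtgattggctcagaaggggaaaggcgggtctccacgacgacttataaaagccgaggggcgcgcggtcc
DNAJB1, chr19:14518421-14518647, minus strand: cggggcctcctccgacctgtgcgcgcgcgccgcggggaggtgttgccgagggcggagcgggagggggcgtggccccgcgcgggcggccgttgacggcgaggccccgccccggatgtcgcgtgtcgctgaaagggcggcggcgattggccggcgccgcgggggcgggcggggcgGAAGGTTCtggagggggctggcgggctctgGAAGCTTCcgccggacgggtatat

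After SNP, chaperone transcripts were higher more often than lower. The HSP110 nucleotide exchange factors, the HSP90 pair, the inducible HSP70 genes, the mitochondrial HSP70 and HSP60 genes and DNAJA1 rose, by 1.39-fold to 2.36-fold. HSPA8, the constitutive HSP70, and DNAJB1, the classical heat shock DNAJ gene, were not called, and HSPB1, BAG6 and HSF1 fell. Of the 91 members, 76 passed the count filter and were tested against control with edgeR's quasi-likelihood test and Benjamini-Hochberg adjustment over all genes. At an adjusted p below 0.05, 30 were higher, 5 were lower and 41 were not called. With per-library offsets on gene length, GC content and the excess of guanine over cytosine (G minus C), 16 were higher and 4 lower. The calls of HSPA4, HSPB1 and HSF1 were among those that ended there. Over all 14759 genes tested, 26.2% were called in either direction, 13.6% as higher and 12.6% as lower. The median log2 fold change was 0.29 over the tested members and -0.0042 over all genes tested. Both SNP values lay above both control values (TMM-scaled CPM, used throughout) in 44 of the tested members and below them in 13; over all genes tested these shares were 31.7% and 32.3%. Members together took 0.685% and 0.689% of the control counts, and 0.929% and 0.841% of the counts after SNP.

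**Figure D1:**
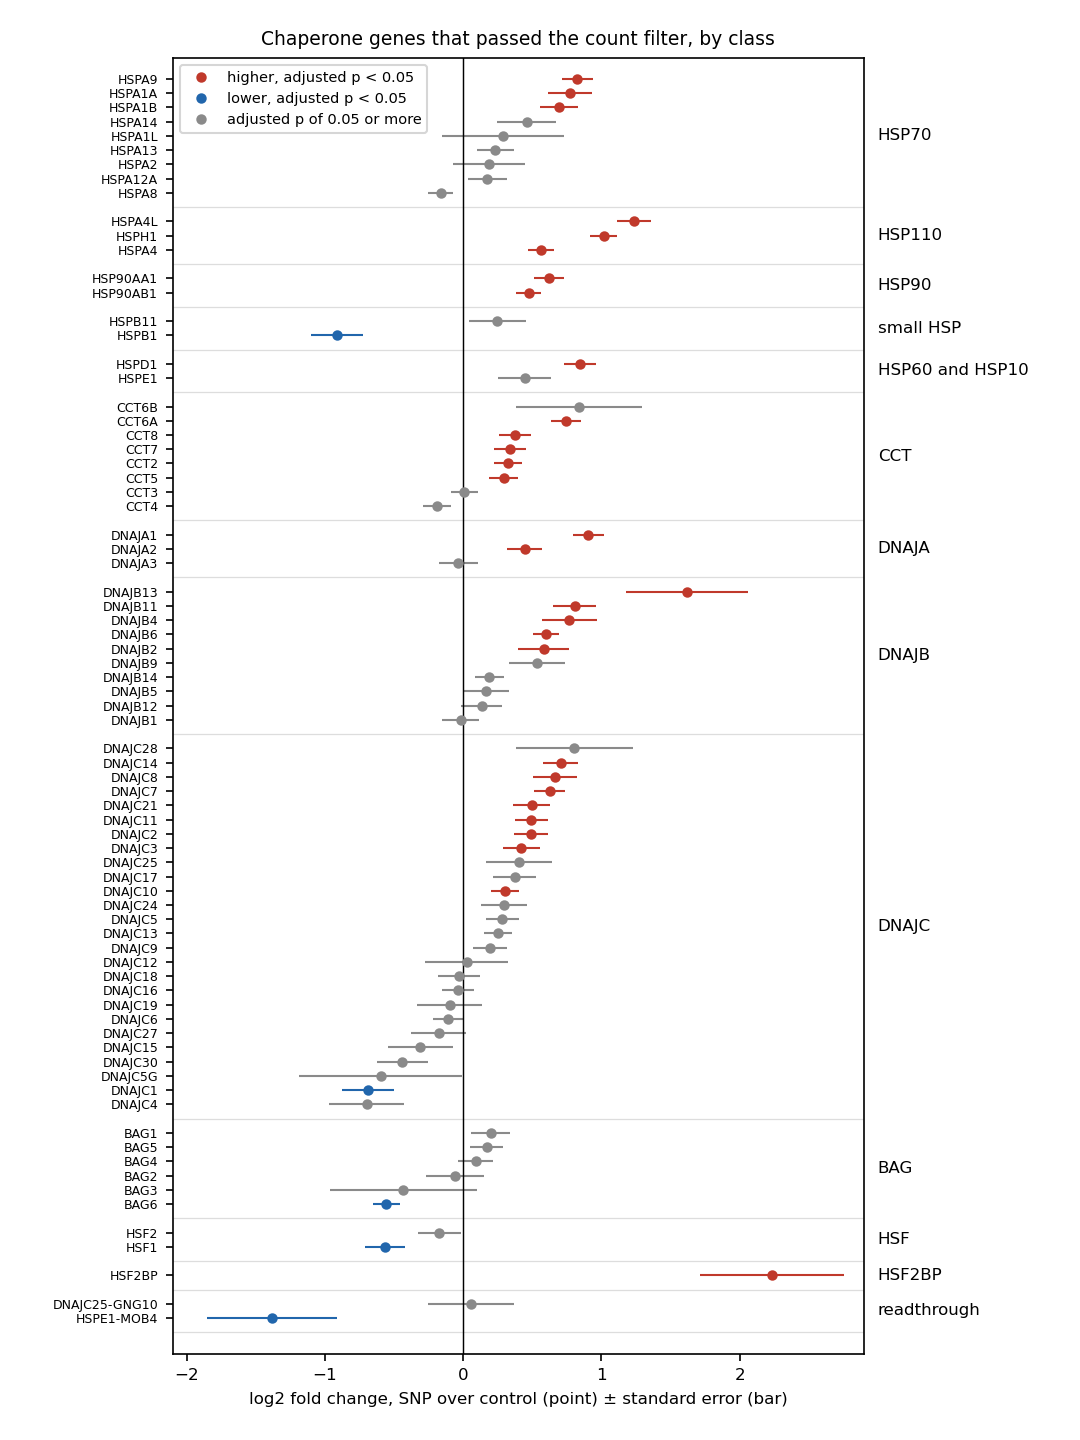
Log2 fold change of SNP over control (horizontal axis, point) with its standard error (bar) for the 76 members that passed the count filter, grouped by class. Red marks the 30 called higher, blue the 5 called lower and grey the 41 not called by edgeR at an adjusted p below 0.05, and all 3 HSP110 genes lie to the right of 0.

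Among cytosolic HSP70 genes, the inducible pair rose and the constitutive gene was not called. HSPA1A (chr6:31815464-31817946, 1 exon) was at 20.5 and 27.4 CPM in control and 41.2 and 40.3 CPM after SNP. HSPA1B (chr6:31827735-31830255), its close copy, was at 40.8 and 53.5 CPM in control and 81.0 and 70.7 CPM after SNP. Both SNP libraries lay above both control libraries for each gene. The log2 fold change was 0.77 for HSPA1A (SE 0.162, edgeR adjusted p = 0.00128) and 0.69 for HSPA1B (SE 0.137, edgeR adjusted p = 0.000809). Their coding sequences are nearly identical, so the split of reads between them is uncertain, and exons of HSPA1B overlap AL671762.1 by 920 bases. Without control a, HSPA1A had a log2 fold change of 0.57 and an edgeR adjusted p of 0.0579.

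HSPA8 (chr11:123057489-123063230), the HSP70 that serves folding and clathrin uncoating in unstressed cells, was at 667 and 620 CPM in control and 599 and 550 CPM after SNP. Both SNP values were below both control values, and close to them: the log2 fold change was -0.16 (SE 0.0895, edgeR adjusted p = 0.191). With per-library offsets on gene length and GC content it was -0.22, with an edgeR adjusted p of 0.0233. Its annotated exons overlap SNORD14C, a small nucleolar RNA gene, by 88 bases. HSPA6, a strictly inducible HSP70 whose promoter holds the long motif, had counts of 1 and 0 in control and 2 and 14 after SNP and did not pass the filter; the count in SNP b stood apart from that in SNP a. HSPA2 and HSPA1L, the HSP70 genes best known from testis, had log2 fold changes of 0.19 and 0.29, with overlapping groups and no call.

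Outside the cytosol, HSPA9, the HSP70 of the mitochondrial matrix that also drives protein import, was at 163 and 204 CPM in control and 348 and 303 CPM after SNP. Its groups did not overlap, and it rose by 0.83 on the log2 scale (SE 0.110, edgeR adjusted p = 1.59e-05). HSPA13, a microsomal HSP70, had overlapping groups (61.5 and 84.1 against 91.9 and 78.8 CPM). HSPA14, which works with DNAJC2 at the ribosome, was at 11.1 and 11.5 CPM in control and 16.8 and 14.2 CPM after SNP, with a log2 fold change of 0.46 (edgeR adjusted p = 0.115). The distant relative HSPA12A was not called (log2 fold change 0.18), and HSPA12B had between 3 and 7 counts per library.

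All 3 HSP110 genes rose, and they included the largest fold change of any member that averaged at least 50 counts. HSPA4L (chr4:127781821-127840733) was at 41.7 and 45.0 CPM in control and 98.2 and 106 CPM after SNP. HSPH1 (chr13:31134974-31162388) was at 178 and 181 CPM in control and 387 and 339 CPM after SNP. HSPA4 (chr5:133051962-133106449) was at 274 CPM in both control libraries and 421 and 389 CPM after SNP. No control value reached an SNP value in any of the 3 genes, and the control libraries were close to each other. Log2 fold changes were 1.24 for HSPA4L (SE 0.120), 1.02 for HSPH1 (SE 0.099) and 0.56 for HSPA4 (SE 0.0926), with edgeR adjusted p-values of 3.81e-07, 3.81e-07 and 0.000137. The HSPA4 call ended with the offsets that include G minus C (log2 fold change 0.10, edgeR adjusted p = 0.32). Exons of HSPA4L overlap AC093591.2 by 536 bases, and those of HSPH1 and HSPA4 overlap none.

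Both cytosolic HSP90 genes rose. HSP90AA1 (chr14:102080738-102139699), the stress-inducible isoform, was at 737 and 600 CPM in control and 1147 and 907 CPM after SNP. HSP90AB1 (chr6:44246166-44253888), the constitutive isoform whose promoter holds 2 long motifs, was at 649 and 604 CPM in control and 937 and 803 CPM after SNP. Neither gene's groups overlapped, although SNP a was well above SNP b in both. The log2 fold changes were 0.62 (SE 0.109, edgeR adjusted p = 0.00027) and 0.47 (SE 0.0928, edgeR adjusted p = 0.000729).

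**Figure D2:**
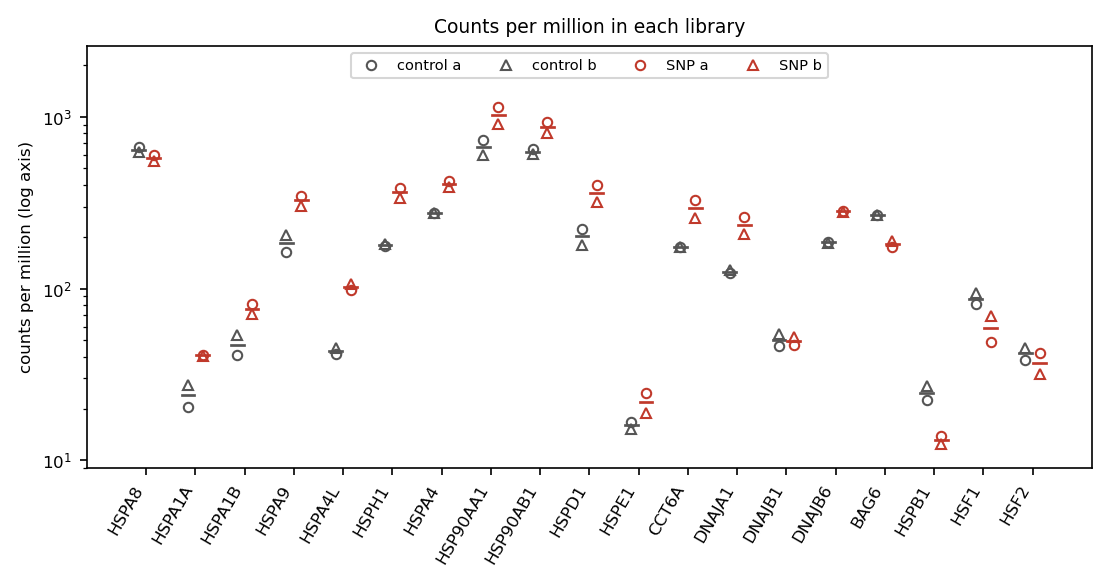
TMM-scaled CPM (logarithmic vertical axis) of 19 members in each library, with control in grey, SNP in red, circles for library a, triangles for library b and lines for group means. HSPA4L rises from 41.7 and 45.0 to 98.2 and 106 CPM, whereas DNAJB1 stays between 46.1 and 54.2 CPM.

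The mitochondrial chaperonin was called for its chamber and not for its lid. HSPD1, the chamber subunit HSP60, was at 223 and 179 CPM in control and 402 and 320 CPM after SNP. It rose by 0.84 on the log2 scale (SE 0.117, edgeR adjusted p = 2.43e-05). HSPE1, the HSP10 lid, which is transcribed in the opposite direction from the same intergenic stretch, was at 16.8 and 15.2 CPM in control and 24.7 and 18.9 CPM after SNP. Its groups did not overlap, yet the log2 fold change of 0.45 (SE 0.192) had an edgeR adjusted p of 0.0931. Without SNP b it was 0.63, with an edgeR adjusted p of 0.0161. Exons of the pair overlap by 281 bases, and whether the counting used strand is not given in the sources used here. HSPE1-MOB4, a readthrough gene that joins HSPE1 to its neighbour and is described below, was called lower, most in SNP a. How reads were split between it and HSPE1 is uncertain, so the HSPE1 values may depend on that split. Places in the cell were assigned after values were seen. Of 8 mitochondrial members, 3 were higher and 0 lower, where 13.6% and 12.6% of all genes tested were. The 3 higher were HSPA9, HSPD1 and DNAJC11, a cristae-organising DNAJ protein of the outer membrane (log2 fold change 0.49). The fold change was above 0 in 4 of the 8, and in 2 both SNP values lay below both control values. The median log2 fold change was 0.21, and -0.02 with offsets on length, GC content and G minus C. DNAJC11 lost its call without control a (edgeR adjusted p = 0.132).

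The cytosolic chaperonin CCT, a ring that folds actin and tubulin, had 5 of 8 tested genes higher and 0 lower. Of all genes tested, 13.6% were called higher and 12.6% lower. The median log2 fold change of the 8 was 0.33. With offsets on length, GC content and G minus C, 1 CCT gene was higher, 0 were lower and the median was 0.0026. The subunits were uneven: CCT6A stood above the rest and CCT3 and CCT4 were not called. CCT6A was at 174 and 175 CPM in control and 326 and 259 CPM after SNP, with a log2 fold change of 0.75 (SE 0.109, edgeR adjusted p = 4.17e-05). CCT8 (0.37), CCT7 (0.34), CCT2 (0.32) and CCT5 (0.29) rose less, with edgeR adjusted p-values of 0.02, 0.0344, 0.0192 and 0.0424. Each of these 4 depended on single libraries. Without SNP a the edgeR adjusted p-values were 0.189, 0.157, 0.106 and 0.304 in that order. Without control a, CCT7 (0.527), CCT2 (0.167) and CCT5 (0.26) also passed 0.05, and without control b so did CCT8 (0.222), CCT2 (0.096) and CCT5 (0.134). CCT3 was at 229 and 251 CPM in control and 250 and 234 CPM after SNP, and CCT4 at 148 and 145 against 134 and 124 CPM. TCP1, the remaining subunit, whose symbol is outside the name pattern, had a log2 fold change of 0.28 (edgeR adjusted p = 0.0513). CCT6B, the testis form of CCT6A, had 12 and 10 counts in control and 26 and 25 after SNP, and was not called.

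Of the 44 DNAJ genes, 39 were tested, 15 were higher and 1 was lower, with a median log2 fold change of 0.29. The shares over all genes tested were 13.6% higher and 12.6% lower. With offsets on length, GC content and G minus C, 6 DNAJ genes were higher and 1 lower, and the median was 0.08. DNAJA and DNAJB proteins feed clients to HSP70 directly, and 2 of 3 tested DNAJA genes and 5 of 10 tested DNAJB genes rose. With those offsets, 1 DNAJA gene and 2 DNAJB genes were called higher. DNAJA1 (chr9:33025211-33039907), a general client carrier for HSPA8, was at 123 and 128 CPM in control and 260 and 209 CPM after SNP. Its control values were close together and far below both SNP values. It rose by 0.91 on the log2 scale (SE 0.111, edgeR adjusted p = 6.23e-06). DNAJA2, its close relative, was at 63.4 and 60.03 CPM in control and 94.0 and 74.0 CPM after SNP, with a log2 fold change of 0.44 (edgeR adjusted p = 0.0133). That call was lost without control a (edgeR adjusted p = 0.0515), without control b (0.106) and without SNP a (0.154). DNAJA3, a mitochondrial DNAJ protein, had a log2 fold change of -0.03, and DNAJA4 had 2 counts in all.

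DNAJB1 did not move with DNAJA1: it was at 46.1 and 54.2 CPM in control and 47.1 and 51.9 CPM after SNP. The groups overlapped, and the log2 fold change was -0.02 (SE 0.133, edgeR adjusted p = 0.939). In the same class, DNAJB6, a suppressor of polyglutamine aggregation with the long motif in its promoter, was at 187 and 184 CPM in control and 283 and 280 CPM after SNP. It rose by 0.60 on the log2 scale (SE 0.0949, edgeR adjusted p = 9.15e-05), and the libraries of each group nearly coincided. DNAJB4, an HSP70 partner abundant in muscle, rose by 0.77 (edgeR adjusted p = 0.00707), from 10.6 and 12.2 to 20.2 and 18.6 CPM. Without control a its edgeR adjusted p was 0.0841. DNAJB2, a DNAJ protein best known from neurons, rose by 0.58 (edgeR adjusted p = 0.023). It lost the call without control a (edgeR adjusted p = 0.314) and without SNP a (0.0579). DNAJB13, known from sperm flagella, had 10 and 8 counts in control and 33 and 39 after SNP. That is a log2 fold change of 1.62 (SE 0.440, edgeR adjusted p = 0.00927), which without SNP b was 1.48 with an edgeR adjusted p of 0.0866. Its exons overlap AP003717.1 by 799 bases.

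Members of the endoplasmic reticulum were mixed: of 8 tested, 3 were higher, 1 was lower and 4 were not called. Among all genes tested, 13.6% were called higher and 12.6% lower. With offsets on length, GC content and G minus C, 0 of the 8 were higher and 1 was lower. DNAJB11, which brings clients to the reticulum's HSP70, was at 25.8 and 23.2 CPM in control and 46.6 and 39.3 CPM after SNP. It rose by 0.81 on the log2 scale (SE 0.154, edgeR adjusted p = 0.000593), and its groups were far apart. DNAJC3, an inhibitor of the kinase PERK, rose by 0.42 (edgeR adjusted p = 0.0236), and DNAJC10, a disulfide reductase, by 0.31 (edgeR adjusted p = 0.0305). DNAJC3 lost its call without control a (edgeR adjusted p = 0.218), control b (0.0785) or SNP a (0.134), and DNAJC10 without control a (0.36) or SNP a (0.149). DNAJB9, a target of the unfolded protein response, was at 11.8 and 15.4 CPM in control and 21.8 and 17.5 CPM after SNP and missed the threshold (edgeR adjusted p = 0.0585). DNAJC1, which binds ribosomes at the translocation channel, fell. It was at 24.8 and 20.4 CPM in control and 13.6 and 14.5 CPM after SNP, with a log2 fold change of -0.69 (SE 0.189, edgeR adjusted p = 0.00988). Without control a it was -0.54, with an edgeR adjusted p of 0.15.

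DNAJC proteins share only the J domain and act in particular places. Of the 26 tested, 8 were higher and 1, DNAJC1, was lower, and the median log2 fold change was 0.27. With offsets on length, GC content and G minus C, 3 were higher and 1 lower, and the median was 0.0055. DNAJC14, an escort of membrane receptors, rose by 0.71 (SE 0.129, edgeR adjusted p = 0.000397), from 39.5 and 42.1 to 70.6 and 62.5 CPM. DNAJC8, found with the spliceosome, rose by 0.67 (SE 0.161, edgeR adjusted p = 0.00412), from 25.4 and 22.8 to 42.4 and 34.1 CPM. DNAJC7, which bridges HSP70 and HSP90, rose by 0.63 (SE 0.113, edgeR adjusted p = 0.000332), from 78.4 and 74.2 to 125 and 111 CPM. In each of these genes both SNP libraries were above both control libraries. Exons of DNAJC14 overlap AC023055.1 by 973 bases, and those of DNAJC7 overlap NKIRAS2 by 484 bases.

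At the ribosome, DNAJC2, which assists emerging chains, rose by 0.49 (edgeR adjusted p = 0.00498) and DNAJC21, which acts in maturation of the large ribosomal subunit, by 0.50 (edgeR adjusted p = 0.00836). DNAJC21 lost its call without control a (edgeR adjusted p = 0.0593) and without SNP a (0.0938). The 3 DNAJC members of vesicles and endosomes were not called. They are DNAJC5, the cysteine string protein of synaptic vesicles (log2 fold change 0.28, edgeR adjusted p = 0.0857), DNAJC13 of endosomes (0.25, edgeR adjusted p = 0.0634) and DNAJC6, the neuronal auxilin that uncoats clathrin with HSPA8 (-0.11, edgeR adjusted p = 0.497).

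Of the 8 small HSP and BAG genes tested, 0 were called higher, where 13.6% of all genes tested were. In so small a set, 0 is close to that share. In each of the 2 classes 1 gene was lower, where 12.6% of all genes tested were. HSPB1, the small HSP HSP27, was at 22.5 and 27.1 CPM in control and 13.8 and 12.4 CPM after SNP. It fell by 0.91 on the log2 scale (SE 0.189, edgeR adjusted p = 0.00117), with both SNP libraries below both controls. The HSPB1 call ended with the offsets that include G minus C. HSPB11, a component of intraflagellar transport despite its name, had overlapping groups. The other 6 small HSP genes were at 0 to 5 counts in each library; of these, HSPB2 and HSPB3 were at 0 in all 4. BAG6, which shields membrane proteins before their insertion, was at 266 and 267 CPM in control and 173 and 190 CPM after SNP. It fell by 0.55 on the log2 scale (SE 0.0971, edgeR adjusted p = 0.000256), and the other 5 BAG genes were not called. BAG3, the stress-inducible BAG gene of selective autophagy, had only 11 and 13 counts in control and 11 and 12 after SNP.

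The transcript of the regulator HSF1 was lower after SNP, with 81.1 and 93.8 CPM in control and 48.8 and 69.3 CPM after SNP. SNP b lay closer to the controls than SNP a, and the groups did not overlap. The log2 fold change was -0.56 (SE 0.142, edgeR adjusted p = 0.00537), a call that ended with the offsets that include G minus C. It was -0.46 without control b (edgeR adjusted p = 0.0571) and -0.33 without SNP a (edgeR adjusted p = 0.0633). HSF2, a second heat shock factor with roles in development, was at 38.5 and 45.3 CPM in control and 42.3 and 31.8 CPM after SNP, with overlapping groups and no call (edgeR adjusted p = 0.448).

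The genes that matched the name pattern only held the extremes. Among them, the readthrough genes join a chaperone gene to its neighbour, so they can share reads with it. HSF2BP, a partner of HSF2 known from meiotic recombination, had 4 and 6 counts in control and 31 and 31 after SNP. It had a log2 fold change of 2.23 (SE 0.520, edgeR adjusted p = 0.00309), and DESeq2 gave it no adjusted p. The readthrough gene HSPE1-MOB4 had 35 and 34 counts in control and 6 and 28 after SNP, so the 2 SNP libraries were far apart. Its log2 fold change of -1.38 (SE 0.473, edgeR adjusted p = 0.0346) became -0.65 without SNP a (edgeR adjusted p = 0.336) and -1.30 without control b (0.0626). DESeq2 did not call it (adjusted p = 0.126). It shares 698 exonic bases with MOB4, and DNAJC25-GNG10 (60 and 66 against 123 and 48 counts) shares 1090 with GNG10, so the read split is uncertain in both. The third readthrough gene, HSPB2-C11orf52, had 1 count in all.

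In all, 15 members did not pass the count filter. Besides HSPA6, HSPA12B, DNAJA4, HSPB2-C11orf52 and the 6 small HSP genes (HSPB2, HSPB3, HSPB6, HSPB7, HSPB8 and HSPB9), they were CCT8L2, DNAJB7, DNAJB8, DNAJC5B and DNAJC22. DNAJC22 had the most counts of these last 5, with 2 and 1 in control and 7 and 4 after SNP. Genes at these levels were not tested.

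The deposited TPM values divide counts by a length per gene, which puts levels of different genes on a common scale. For most genes that length was that of the merged exons of all annotated transcripts, which can exceed that of the main transcript. Order and ratios between genes therefore depend on the annotation. HSP90AB1 was first in every library, at 1017 and 965 TPM in control and 1574 and 1412 TPM after SNP. HSP90AA1 (656 and 544 against 1094 and 906 TPM) and HSPA8 (643 and 609 against 619 and 595 TPM) exchanged places between the control libraries, so their order there lies within the spread. After SNP, HSP90AA1 was above HSPA8 in both libraries. DNAJA1 moved from rank 9 and 8 in the control libraries to rank 4 in both SNP libraries, and CCT3 from rank 4 in both to rank 9 in both.

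The make-up of the cytosolic HSP70 transcripts differed between the groups, as the bar plots of TPM ratios show. HSPA1A and HSPA1B together held 14.8% and 19.9% of cytosolic HSP70 TPM in control and 27.7% and 27.6% after SNP. Their sum depends less than the level of either gene on how reads were split between them. How reads that match both genes were counted is not given in the sources used here. HSP110 TPM was 47.4% and 48.4% of cytosolic HSP70 TPM in control and 77.5% and 77.7% after SNP. DNAJA1 TPM equalled 32.6% and 36.6% of HSPA8 TPM in control and 77.1% and 67.5% after SNP. DNAJB1 TPM equalled 28.0% and 31.5% of DNAJA1 TPM in control and 13.5% and 18.4% after SNP, while DNAJB1 TPM itself overlapped between the groups (58.7 and 70.3 against 64.2 and 74.0). The ratio of HSPD1 to HSPE1 TPM was 6.18 and 5.48 in control and 7.57 and 7.89 after SNP. That ratio depends on the uncertain split of reads between HSPE1 and HSPE1-MOB4. In none of these shares and ratios did the groups overlap; with 2 libraries against 2, the smallest two-sided p an exact permutation test allows is 0.333. Summed over all members, TPM was 6973 and 7087 in control and 10198 and 9351 after SNP.

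**Figure D3:**
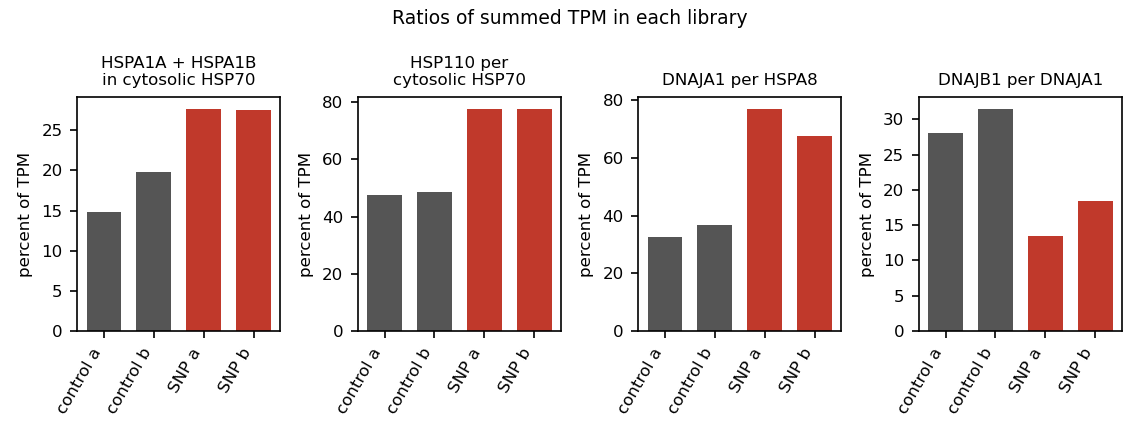
Ratios of TPM in percent (vertical axes, from 0) in each library, control in grey and SNP in red, 1 bar per library. The share of HSPA1A plus HSPA1B, the HSP110 level and the DNAJA1 level are higher in both SNP libraries, and DNAJB1 per DNAJA1 is lower (13.5% and 18.4% against 28.0% and 31.5%), with DNAJB1 TPM itself overlapping between the groups.

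Genes that work with these chaperones but carry other names were read from a list of 48, of which 45 passed the filter, 14 were higher and 5 were lower. Over all genes tested, 13.6% were called higher and 12.6% lower. The median log2 fold change of the list was 0.18. Of 17 HSP90 co-chaperones, 8 were higher and 2 lower. CDC37, which loads kinases onto HSP90, rose by 0.84 (edgeR adjusted p = 6.2e-05), from 38.3 and 38.4 to 70.8 and 66.1 CPM. CHORDC1, an HSP90 co-chaperone of the CHORD family, rose by 0.82 (edgeR adjusted p = 5.45e-06), from 138 and 143 to 260 and 237 CPM. PPID, a cyclophilin bound to HSP90, rose by 0.62 (edgeR adjusted p = 0.0139), a call lost without control b (0.157) and without SNP a (0.158).

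Among HSP70 helpers, ST13, which links HSP70 and HSP90, rose by 0.72 (edgeR adjusted p = 0.000296). GRPEL2, a nucleotide exchanger of HSPA9, rose by 0.45 (edgeR adjusted p = 0.0117). GRPEL1 of the same list, named after its values were seen, was not called (log2 fold change 0.37, edgeR adjusted p = 0.215). GRPEL2 lost its call without control b (edgeR adjusted p = 0.0953) and without SNP a (0.145). Of 11 chaperonin partners, 1 was called, where 26.2% of all genes tested were called. It was BBS10, a chaperonin-like protein of the cilium base, at 0.77 (edgeR adjusted p = 0.00532). Among 5 mitochondrial chaperones and proteases, 1 was higher and 1 lower, where 13.6% and 12.6% of all genes tested were. Their median log2 fold change was -0.13, and in 3 of them both SNP values lay below both control values. The higher gene, the protease LONP1, rose by 0.71 (edgeR adjusted p = 7.57e-05), from 78.4 and 88.2 to 132 and 140 CPM. Among 7 HSF1 targets outside the chaperone classes above, SERPINH1, the collagen chaperone of the reticulum, rose by 0.75 (edgeR adjusted p = 0.00177). That call was lost without control a. CACYBP, which binds a ubiquitin ligase, rose by 0.64 (edgeR adjusted p = 0.00128). UBB, a polyubiquitin gene, fell by 0.84 (edgeR adjusted p = 2.44e-05), from 137 and 162 to 89.4 and 77.8 CPM.

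A further 3 genes of the list that were lower had weaker calls. They were SGTA, a partner of BAG6 (log2 fold change -0.37), HSPBP1, an HSP70 nucleotide exchanger (-0.54), and CLPP, a mitochondrial protease (-0.66), with edgeR adjusted p-values of 0.042, 0.0334 and 0.0291. They were called in 1, 1 and 0 of the 4 fits that each left out a library, and without control a their edgeR adjusted p-values were 0.127, 0.197 and 0.0992. DESeq2 called none of these 3, with adjusted p-values of 0.129, 0.148 and 0.140. The small HSP genes CRYAB, CRYAA and ODF1 totalled 1 count.

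Of the 28 higher members with a promoter window, 5 held the long heat shock motif printed above: DNAJA1, DNAJB6, HSPD1, HSP90AA1 and HSP90AB1. Of 3 lower members with a window, 0 held it, and of 37 members not called, 1 did (HSPA8). The short motif occurred in 8 of the 28, in 1 of the 3 (HSPB1), in 5 of the 37 and in 5 of 10 untested members with a window. The HSP110 genes HSPA4L, HSPH1 and HSPA4 had neither motif in their windows.

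Base composition moved with the fold change, across these genes as across all genes. The excess of guanine over cytosine in a gene's transcripts (G minus C, in percentage points) had a median of 3.24 over the tested members and 1.04 over all genes tested, and 60 of the 76 members lay above the latter. Spearman's rho with the log2 fold change was 0.648 across the 76 members and 0.480 across 14724 genes; genes of 1 library share depth and preparation, and these values carry no p. Of the 30 higher members, 29 were above the all-gene median. Of the 5 lower members, 2 were above it, DNAJC1 and HSPE1-MOB4, at percentiles 61.8 and 94.8 of all genes, and HSPB1, HSF1 and BAG6 were at percentiles 0.93, 4.68 and 10.4.

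With per-library offsets on length, GC content and G minus C, 16 members were higher and 4 lower, where 8.59% and 10.3% of all genes were called higher and lower. The median log2 fold change of the members was then 0.04, and that of all genes tested -0.03. With and without the offsets, 19 members were called in the same direction. HSPA4L (1.03, edgeR adjusted p = 7e-05), DNAJA1 (0.66, 0.00016), HSPH1 (0.62, 9.2e-05), HSPA1A (0.65, 0.0064), HSPA1B (0.54, 0.0075) and HSPA9 (0.51, 0.0032) kept their calls, as did HSPD1 (0.37, 0.011), DNAJB6 (0.36, 0.0027), HSP90AA1 (0.27, 0.041), HSP90AB1 (0.22, 0.028), CCT6A (0.24, 0.03) and BAG6 (-0.29, 0.0097). The fold changes of these 12 genes were all smaller in size than without the offsets. The calls of HSPA4 (0.10, edgeR adjusted p = 0.32), DNAJB11 (0.37, 0.056), HSPB1 (-0.27, 0.34) and HSF1 (-0.24, 0.14) ended, as did those of CCT8, CCT7, CCT2, CCT5, DNAJA2, DNAJB2, DNAJB4, DNAJC2, DNAJC3, DNAJC8, DNAJC10 and DNAJC21. HSPA8 was called lower in that fit (-0.31, edgeR adjusted p = 0.0036). In the list of genes with other names, 7 were then higher and 5 lower; the calls of CACYBP (0.28, edgeR adjusted p = 0.074), PPID (0.16, 0.51), GRPEL2 (0.15, 0.27), SGTA (-0.14, 0.36) and CLPP (-0.16, 0.63) ended.

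**Figure D4:**
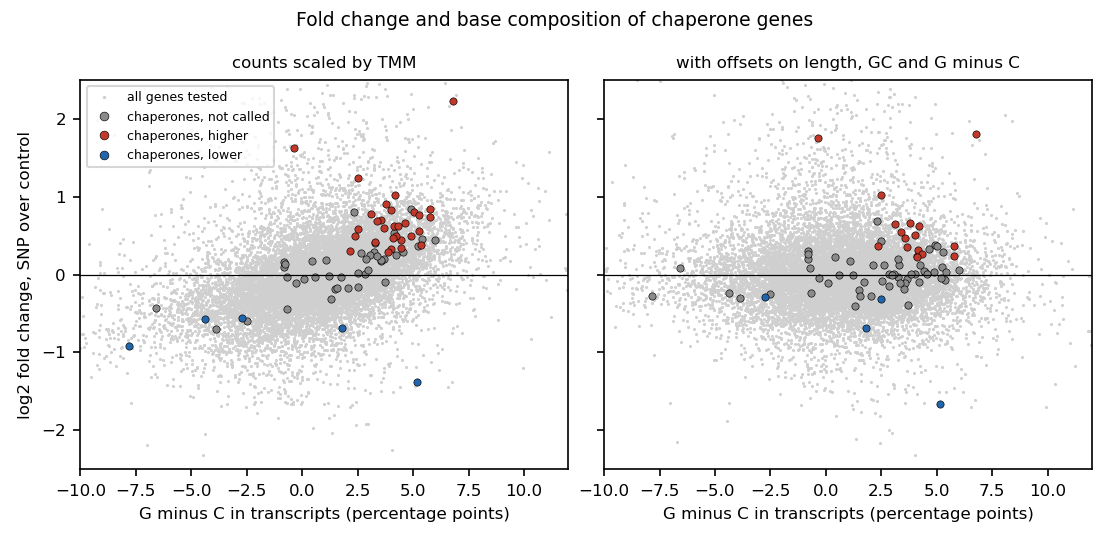
Log2 fold change of SNP over control (vertical axis) against G minus C of the transcripts in percentage points (horizontal axis), without (left) and with (right) offsets on length, GC content and G minus C; grey dots are all genes tested, and larger points are the chaperones coloured by call. The axes leave out 126 genes on the left and 131 on the right, and the number of chaperones called higher goes from 30 to 16.

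Higher members were mostly higher in SNP a than in SNP b: SNP a was above SNP b in 26 of the 30, and control a was above control b in 11 of them. Leaving out control a gave 23 called members where 16% of all genes were called, and leaving out SNP a gave 27 where 20.3% were. Leaving out control b gave 29, beside 15.8%, and leaving out SNP b gave 37, beside 27.5%. All 35 called members kept the sign of their fold change in these 4 fits, and 17 of the 30 higher and 2 of the 5 lower, HSPB1 and BAG6, were called in each.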

How the data were processed

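RNA of 2 control and 2 SNP libraries was sequenced with reads of 75 bases. The deposited expression column holds whole-number read counts per gene, made by the authors without normalization, per the file headers and the values. The TPM column deposited by the authors sums to 1000000 per library and was used for levels and ratios between genes. The RPKM column deposited by the authors served only for the read totals it implies, 48.7 to 62.0 in units of 1000000 reads, which are far above the summed counts of 5613144 to 8056550; what the difference consists of is not given in the sources used here. Build GRCh38 is named in the submitters' processing notes; aligner, counter, annotation and use of strand are not given in the sources used here. Positions, exon overlaps, lengths and base composition came from GENCODE 29, whose exon lengths equalled those implied by count and RPKM (within 1%) for 90.7% to 90.8% of counted genes.

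The test was that of edgeR 4.0.16 (R 4.3.3), with filterByExpr (minimum count 10, minimum total 15), TMM scaling, quasi-likelihood test of SNP against control with all 4 libraries and no covariate, and Benjamini-Hochberg adjustment over all genes, with a threshold of 0.05. Promoter windows were matched by Ensembl gene identifier or symbol. Comparisons of protein sequences that had been planned were not made. Members and lists were chosen with earlier results of these data known, and the places in the cell were assigned after values were seen. Genes named by rule were 17 core chaperones, up to 4 called genes in each direction per class, the genes that match by name only, members too weakly counted, and up to 3 in each direction per other list; further members were named after their values were seen, and 1 gene of the other lists is not reported here.

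Alternatives were other filters, scalings (DESeq2 size factors, total counts, RPKM totals) and tests (DESeq2 1.42.0, limma-voom with limma 3.58.1), the replicate letter as a block, lowess offsets (span 0.5), genes without exonic overlap, a threshold of 0.01, and leaving out each library. The scripts were tested on simulated data.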

Additional observations from a re-analysis of the deposited data

How the results depend on the processing

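The members' count of 35 calls (30 higher) stayed within 1.5 times itself except with offsets that include G minus C (20), with genes free of exonic overlap (18 of 36 tested) and when libraries were left out (23 to 37); at an adjusted p below 0.01 it was 26, and with DESeq2 27 (24 higher, 3 lower), without DNAJC1 (adjusted p = 0.0571) and CCT7 (0.0681) among others, and with no adjusted p for HSF2BP and DNAJB13. The members' median log2 fold change was 0.044 with offsets that include G minus C and between 0.21 and 0.40 in the other fits. Over all genes, DESeq2 called 2415, genes without exonic overlap 1991, a threshold of 0.01 gave 2224, and leaving out libraries gave 2447 to 4152. The other chaperone and heat shock genes had 12 calls with DESeq2, 12 with offsets that include G minus C, 6 without exonic overlap, 11 at 0.01 and 10 to 19 with a library left out. RPKM totals raised the share of higher among all calls from 51.9% to 63.1%. With the replicate block 39 members were called (32 higher, 7 lower) and 4487 genes (30.4%). Deviations of same-letter libraries correlated at 0.0502 across genes. With a single pair of libraries per group, this cannot show whether a letter marks a shared culture or day. Among genes that were not called, signs turned for CCT3, which was near 0 (-0.060 to 0.074 with a library left out, -0.15 with G minus C offsets), and, among those named by rule, for HSF2 with a library left out (-0.39 to 0.021, above 0 without SNP b); DNAJB1 with RPKM totals (0.053), length and GC offsets (0.044; with the replicate block 0.043) and a library left out (-0.14 to 0.10, above 0 without control b or SNP a); BAG3 with G minus C offsets (0.089); and DNAJC25-GNG10 with limma-voom (-0.068), the replicate block (-0.013), G minus C offsets (-0.011) and a library left out (-0.75 to 0.57, below 0 without control a or SNP a). CCT8, called higher, was at -0.069 with G minus C offsets and not called there. Depth limits members under about 10 counts per library. The cause of these shifts was not tested.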

Other observations

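Genes outside the protein-coding class whose names match the same pattern numbered 110, of which 104 were pseudogenes of chaperone genes. Of the 9 that passed the count filter, 0 were called by edgeR, and their sum over all 110 was 79.4 and 75.6 CPM in control and 82.5 and 74.2 CPM after SNP. Pseudogene copies can hold reads of their parent genes, and how the authors' counting treated such reads is not given in the sources used here.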
